A study of Mus musculus with 18 samples.

Results

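The chaperones that fold proteins inside mitochondria were followed through heat shock and through 2 knockdowns in mouse embryonic fibroblasts. The set held 9 genes: Hspd1, Hspe1, Hspa9, Trap1, Grpel1, Grpel2, Dnaja3, Hscb and Clpb. They were listed by symbol and by no cutoff on a measured value, but with earlier results of these data known. All 9 were found among the 19938 gene symbols of the array table, none was removed by a filter, and each was read from the probe set that carried that symbol alone and had the highest mean signal. Immortalized MEF cells of ICR background had been infected for 2 h with adenovirus and were then grown for 70 h. The virus delivered a scrambled sequence in the SCR cells, a hairpin that targets the Hsf1 message in the HSF1-KD cells and one that targets the Ssbp1 message in the SSBP1-KD cells. Each kind of cell was collected either unheated from 37 °C (Cont) or after a water bath of 1 h at 42 °C (HS), giving 6 groups of 3 arrays. All groups thus shared the cell line and the viral infection, and whether the 3 arrays of a group came from separate infections is not given, so that p-values measure the spread between these arrays. In such whole-culture RNA, fewer cells that make a transcript and less transcript per cell cannot be told apart.

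Proteins enter the mitochondrial matrix as unfolded chains. They are pulled in by the Hsp70 motor Hspa9 (mortalin) and are often passed to the Hspd1 (Hsp60) chamber, which is closed by the Hspe1 (Hsp10) lid. J proteins such as Dnaja3 and Hscb hand clients to Hspa9 and start its ATP cycle, and the nucleotide exchange factors Grpel1 and Grpel2 reset it. Trap1 is the Hsp90 of mitochondria, and Clpb (Skd3) is an ATP-driven disaggregase, placed in the matrix by the grouping used here although the mammalian protein is now mostly described in the intermembrane space. HSF1 is the main heat shock transcription factor, and SSBP1 is a single-stranded DNA-binding protein of the mitochondrial nucleoid.

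Hspd1 and Hspe1 stand head to head on chromosome 1 in the RefSeq annotation of GRCm38.p6, with Hspd1 at 55077833 to 55088243 on the minus strand and Hspe1 at 55088148 to 55091317 on the plus strand. Start sites at 55087932 for Hspd1 and 55088148 for Hspe1 are separated by 215 bases, and a second annotated Hspd1 start at 55088243 makes the genes overlap by 96 bases. The stretch between them holds a run of inverted GAA units of the kind that heat shock factors bind. It is shown because both genes share it, from chr1:55088053-55088082, with the run in capitals, once in the direction of each gene.
Hspe1 direction: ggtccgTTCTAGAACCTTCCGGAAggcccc
Hspd1 direction: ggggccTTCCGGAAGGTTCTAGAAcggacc
The 18 capital bases lie 127 bases from that Hspd1 start and 72 bases from the Hspe1 start. They match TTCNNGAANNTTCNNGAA, a run of 4 alternating units, which was searched together with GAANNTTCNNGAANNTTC on both strands. Of 32851 RefSeq promoter windows, from 250 bases before to 50 after a start, 8 held such a run (0.0244%). A window of Hspd1 and that of Hspe1 are among them, holding the same 18 bases. A run of 3 units was held by 0.603% and a run of 2 by 15.1%, the shorter runs being counted inside the longer ones. The windows of Trap1, Grpel1, Dnaja3 and Clpb held no run of 2 or more units. A match in letters is a description and not a bound site. Hspa9, Grpel2 and Hscb are named without a promoter sequence.

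The array medians lay between 7.88 and 7.94 on the log2 scale, and arrays of one group correlated at 0.985 to 0.997. Of 11 fibroblast markers, 9 lay above the median of all probe sets, with Thy1 and Lum below it, against 2 of 5 measured blood cell markers (Cd68 and Cd3e), 2 of 4 epithelial, 1 of 4 endothelial and 0 of 3 neuronal markers. The library labelled SSBP1-KD Cont replicate 1 stood farthest from its group, with a mean absolute residual of 0.105 against 0.0505 to 0.0734 for the other arrays. Ssbp1 had 2 probe sets. In the brighter, SSBP1-KD differed from SCR by -0.22 in Cont (adjusted p = 0.0555) and by -0.41 in HS (adjusted p = 0.00155). In the other, whose 20 neighbours in probe set number all lie on chromosome 6 with the gene, it differed by -0.07 and -0.03 (adjusted p = 0.513 and 0.826), and the brighter one is numbered among probe sets of chromosome 11 (19 of 20 neighbours). Against SCR, a lower signal thus passed the test in HS alone, in the probe set numbered away from the gene. Against HSF1-KD, the brighter probe set differed in SSBP1-KD by -0.35 in Cont and -0.61 in HS (adjusted p = 0.0044 and 5.67e-05). The chromosome 6 probe set differed by -0.22 in Cont and -0.17 in HS (adjusted p = 0.0414 and 0.115). No probe set carried Hsf1 as its single symbol, and its knockdown was not analysed here.

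Of the chaperones, 8 lay above the median of all probe sets, and Hscb lay below it, with a mean log2 signal of 7.27. Hspd1 and Hspe1 had 2 probe sets each. The brightest Hspd1 probe set is numbered among probe sets of chromosome 11 (19 of 20 neighbours) and the brightest Hspe1 probe set among those of chromosome 18 (20 of 20), whereas the next brightest of both are numbered among those of chromosome 1, where the genes lie (19 of 20 and 20 of 20). RefSeq lists 23 Hspd1 pseudogenes on 14 chromosomes and 7 Hspe1 pseudogenes on 5. Which copies each probe set reads was not tested, and differences between groups are therefore given from both probe sets for these genes. Their array values, group means and correlations are those of the brightest one.

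**Figure D1:**
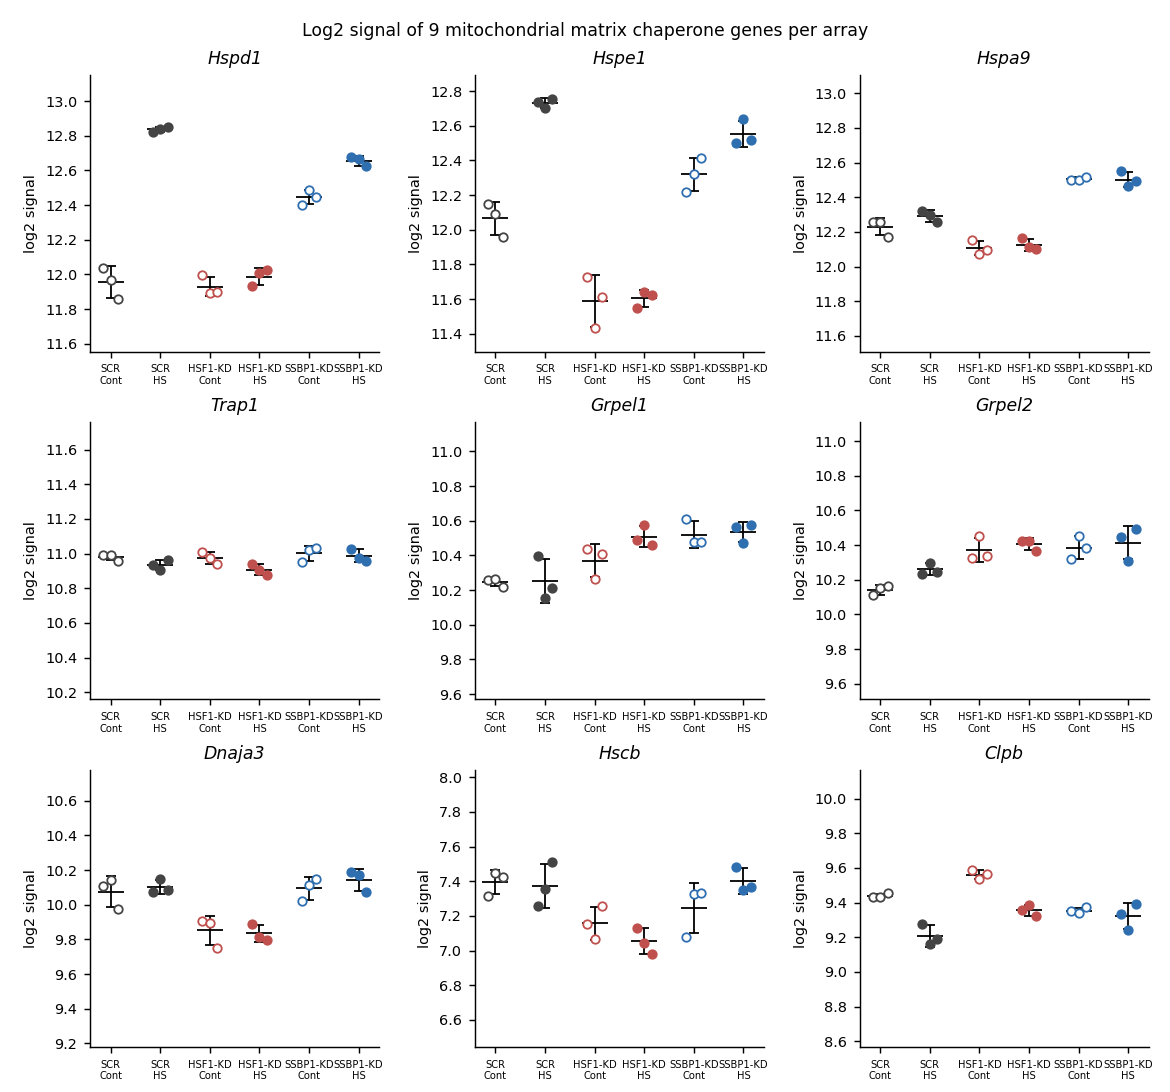
Log2 signal of each chaperone gene on every array, with the 6 groups along the horizontal axis; open points are Cont, filled points HS, and the horizontal mark with bars is the mean ± SD of 3 arrays. Each panel spans the same 1.6 log2 units at its own height, since signals of different probe sets cannot be compared, and the widest separation of groups is seen for Hspd1 and Hspe1.

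Heat shock raised the Hsp60 and Hsp10 transcripts in scrambled RNA-treated cells. Unheated SCR arrays read 12.04, 11.97 and 11.86 for Hspd1, the heated ones 12.82, 12.84 and 12.85 (log2 signals), and the groups did not overlap. The log2 difference was 0.88 (standard error 0.0493), a 1.84-fold rise (adjusted p = 2.56e-08). For Hspe1 the signals were 12.15, 12.09 and 11.96 in SCR Cont and 12.74, 12.70 and 12.76 in SCR HS, again without overlap, and the rise was 0.67 (standard error 0.0741, 1.59-fold, adjusted p = 2.27e-05). The chromosome 1 probe sets gave 0.95 for Hspd1 and 0.65 for Hspe1 (adjusted p = 3.82e-07 and 2.81e-06).

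Neither transcript passed the test for heat in HSF1 knockdown cells. The Hspd1 signals there were 11.99, 11.90 and 11.90 in Cont and 11.93, 12.01 and 12.02 in HS, overlapping ranges with a log2 difference of 0.06 (95% interval -0.05 to 0.16, adjusted p = 0.482). Hspe1 was at 11.73, 11.43 and 11.61 in Cont and at 11.55, 11.64 and 11.62 in HS, a difference of 0.01 (95% interval -0.14 to 0.17, adjusted p = 0.930). The chromosome 1 probe sets gave -0.05 for Hspd1 and -0.03 for Hspe1 (adjusted p = 0.667 and 0.805). The heat-shocked arrays thus lay inside or beside the range of the unheated ones. The heat response itself differed from that of SCR, by -0.83 for Hspd1 (standard error 0.0697, adjusted p = 1.35e-05) and by -0.65 for Hspe1 (standard error 0.105, adjusted p = 0.00886), and in the chromosome 1 probe sets by -1.004 and -0.678 (adjusted p = 6.24e-05 and 0.000644). These 2 members were called lower among 9, against 0.336% of all symbols, and 0 were called higher, against 0.01%. With the methods' t-test the Hspe1 difference in response no longer passed (adjusted p = 0.0988).

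In SSBP1 knockdown cells Hspd1 rose less with heat than in scrambled RNA-treated cells, from a higher level, while for Hspe1 the difference between the responses did not pass the test. Hspd1 was at 12.40, 12.49 and 12.45 in Cont and at 12.68, 12.66 and 12.62 in HS, which did not overlap. The rise of 0.21 (standard error 0.0493, 1.16-fold) passed the test (adjusted p = 0.0160), and it no longer passed without SSBP1-KD HS replicate 1 (0.20, adjusted p = 0.0621) or replicate 2 (0.20, adjusted p = 0.0532), with the compared arrays alone (adjusted p = 0.127) or with the methods' t-test (adjusted p = 0.0961). Its chromosome 1 probe set gave 0.23 (adjusted p = 0.0496). Hspe1 was at 12.22, 12.32 and 12.41 in Cont and at 12.50, 12.64 and 12.52 in HS. These ranges did not overlap either, but the difference of 0.23 (95% interval 0.07 to 0.39) missed the threshold (adjusted p = 0.0696). It passed in the chromosome 1 probe set (0.22, adjusted p = 0.0261), and also without HSF1-KD Cont replicate 1 or 2 or SSBP1-KD Cont replicate 3 (0.23, 0.23 and 0.28, adjusted p = 0.0488, 0.0362 and 0.0499).

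The difference between the SSBP1-KD and SCR heat responses was -0.67 for Hspd1 (standard error 0.0697, adjusted p = 0.000291), with 23.7% of the SCR rise left, and -0.72 in the chromosome 1 probe set (adjusted p = 0.00299). For Hspe1 the difference between the responses was -0.43 (standard error 0.105, adjusted p = 0.111), and the chromosome 1 probe set gave -0.43 with an adjusted p of 0.0322. The Hspe1 log2 difference in SSBP1-KD was 35.0% of that in SCR, with signal changes of 17.54% and 58.77%. Hspd1 was thus 1 member called lower, against 0.311% of all symbols, and 0 members were called higher, against 0.181%. Both knockdowns were set against the same SCR arrays. Compared with each other, their heat responses differed by 0.15 for Hspd1 (95% interval 0.00 to 0.30, adjusted p = 0.444) and by 0.22 for Hspe1 (95% interval -0.01 to 0.44, adjusted p = 0.475), and in the chromosome 1 probe sets by 0.29 and 0.25 (adjusted p = 0.248 and 0.228). Of the 9 members 0 passed, against 0.291% of symbols called higher and 0.0502% called lower. Before adjustment 3 members (Hspd1, Hscb and Clpb) were under 0.05 in limma, and the methods' t-test with adjustment also called 0.

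**Figure D2:**
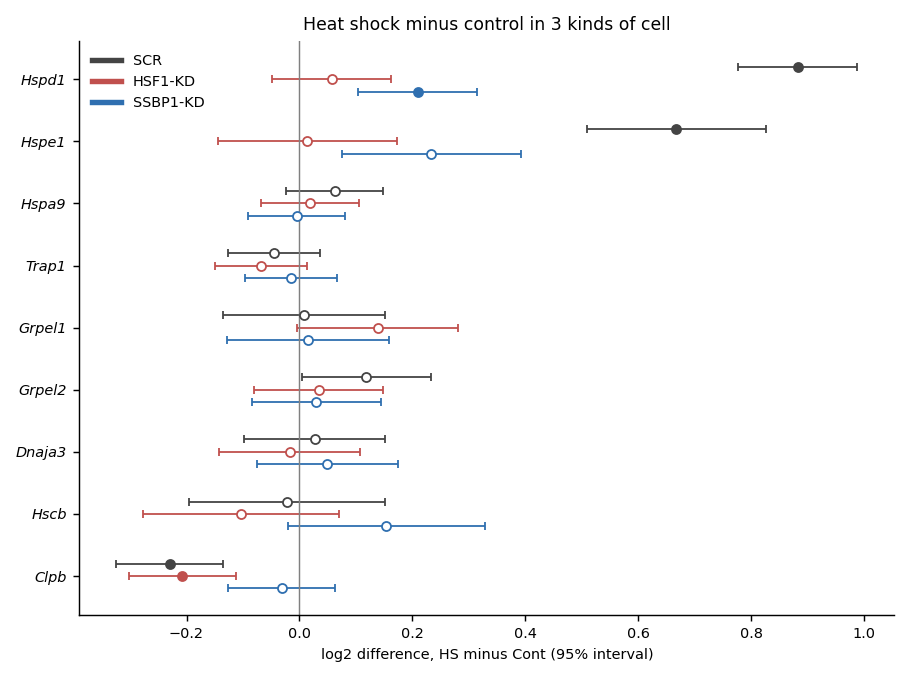
Log2 difference between HS and Cont for each chaperone gene (horizontal axis, with its 95% interval) in SCR, HSF1-KD and SSBP1-KD cells, fitted over all arrays; filled points passed an adjusted p under 0.05 and open points did not. Hspd1 and Hspe1 rose by 0.88 and 0.67 in SCR, Clpb fell by 0.23 in SCR and by 0.21 in HSF1-KD, and the intervals of most other genes include 0.

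Clpb moved the other way with heat. The disaggregase was at 9.43, 9.43 and 9.45 in SCR Cont and at 9.28, 9.16 and 9.19 in SCR HS, all lower, a difference of -0.23 (standard error 0.0443, adjusted p = 0.00229). It also fell in HSF1 knockdown cells, from 9.59, 9.53 and 9.56 to 9.36, 9.39 and 9.32, by 0.21 (adjusted p = 0.00395). In SSBP1 knockdown cells the values were 9.35, 9.34 and 9.37 in Cont and 9.33, 9.24 and 9.39 in HS, which overlapped, with a difference of -0.03 (95% interval -0.13 to 0.06, adjusted p = 0.730). Neither contrast of heat responses passed for Clpb, with 0.20 for SSBP1-KD against SCR (adjusted p = 0.256) and 0.18 for SSBP1-KD against HSF1-KD (adjusted p = 0.280), so that a different response was not shown.

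The Hspa9 motor and its partners showed no called response to heat in any kind of cell. Hspa9 differed by 0.06 in SCR (95% interval -0.02 to 0.15), by 0.02 in HSF1-KD and by 0.00 in SSBP1-KD. The exchange factor Grpel2 had non-overlapping values in SCR, 10.11, 10.15 and 10.16 in Cont against 10.23, 10.30 and 10.25 in HS, but its difference of 0.12 did not pass (95% interval 0.00 to 0.23, adjusted p = 0.172). Trap1, Grpel1, Dnaja3 and Hscb differed by -0.05 to 0.03 in SCR. In HSF1-KD, Grpel1 differed by 0.14 (95% interval -0.005 to 0.28, adjusted p = 0.174) and Trap1 by -0.07 (adjusted p = 0.248), both without overlap. Hscb differed by 0.15 in SSBP1-KD without overlap (adjusted p = 0.285) and by -0.10 in HSF1-KD with overlap (adjusted p = 0.430). Over the set, heat shock in SCR called 2 members higher and 1 lower, against 7.63% and 8.34% of all symbols, and the median of the 9 differences was 0.03 against -0.01 for all symbols. In HSF1-KD 0 were called higher and 1 lower (all symbols 10.6% and 10.8%), and in SSBP1-KD 1 was called higher and 0 lower (all symbols 4.08% and 2.82%).

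SSBP1 knockdown itself was accompanied by higher chaperone transcripts in unheated cells. Hspd1 was higher than in SCR Cont by 0.49 (standard error 0.0493, 1.41-fold, adjusted p = 5.59e-06), with every SSBP1-KD Cont array above every SCR Cont array, and by 0.55 in the chromosome 1 probe set (adjusted p = 3.62e-05). Hspe1 was higher by 0.25 (standard error 0.0741, adjusted p = 0.0214), a call that did not pass without SCR Cont replicate 3 (0.20, adjusted p = 0.104), without SSBP1-KD Cont replicate 2 (0.25, adjusted p = 0.0523) or replicate 3 (0.21, adjusted p = 0.0802), with the compared arrays alone (adjusted p = 0.0918) or with the methods' t-test (adjusted p = 0.144). Its chromosome 1 probe set gave 0.27 (adjusted p = 0.00308).

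The Hsp70 motor rose with them. Hspa9 was at 12.26, 12.26 and 12.17 in SCR Cont and at 12.50, 12.50 and 12.52 in SSBP1-KD Cont, a difference of 0.28 (standard error 0.0403, 1.21-fold, adjusted p = 0.000141) without overlap. Grpel1 went from 10.26, 10.26 and 10.22 to 10.61, 10.48 and 10.48 (0.27, standard error 0.0668, adjusted p = 0.00723), and Grpel2 from 10.11, 10.15 and 10.16 to 10.32, 10.45 and 10.39 (0.24, standard error 0.0534, adjusted p = 0.00353). Both exchange factors were higher on every SSBP1-KD Cont array than on any SCR Cont array, and the share of all symbols that do so is not given. Trap1 (0.02), Dnaja3 (0.02), Hscb (-0.15) and Clpb (-0.08) did not pass, although Clpb passed with the methods' t-test (adjusted p = 0.0341). The knockdown thus called 5 members higher and 0 lower, against 14.6% and 16.5% of all symbols, and the median difference of the members was 0.24 against 0.05 for all. Without SSBP1-KD Cont replicate 1 the same 5 members passed, and the share of all symbols in that fit is not given.

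After heat shock the order of SSBP1-KD and SCR turned for Hspd1. It was lower in SSBP1-KD HS than in SCR HS (-0.18, standard error 0.0493, adjusted p = 0.0141), without overlap. This call was lost without SCR HS replicate 3 (-0.18, adjusted p = 0.0503), without SSBP1-KD HS replicate 3 (-0.17, adjusted p = 0.0572) and in the chromosome 1 probe set (-0.16, adjusted p = 0.111). Hspe1 differed by -0.18 (95% interval -0.34 to -0.02, adjusted p = 0.103), and by -0.16 in the chromosome 1 probe set (adjusted p = 0.0543).

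Hspa9 and Grpel1 stayed higher in SSBP1 knockdown cells at 42 °C. Hspa9 was at 12.32, 12.30 and 12.26 in SCR HS and at 12.55, 12.46 and 12.49 in SSBP1-KD HS, a difference of 0.21 (standard error 0.0403, adjusted p = 0.00136). Grpel1 was at 10.40, 10.15 and 10.21 in SCR HS and at 10.56, 10.47 and 10.58 in SSBP1-KD HS, a difference of 0.28 (standard error 0.0668, adjusted p = 0.00624) that did not pass the methods' t-test (adjusted p = 0.103). Neither gene overlapped between the groups, without a share of all symbols to set beside this. Grpel2 differed by 0.15 (adjusted p = 0.0509) and Clpb by 0.11 (adjusted p = 0.0846). Grpel2 passed without SSBP1-KD HS replicate 2 (0.21, adjusted p = 0.0120), SSBP1-KD Cont replicate 1 or 2 (0.15, adjusted p = 0.0394 and 0.0495) or HSF1-KD Cont replicate 2 (0.15, adjusted p = 0.0409), and Clpb without SSBP1-KD HS replicate 2 (0.15, adjusted p = 0.0287) or SCR HS replicate 1 (0.15, adjusted p = 0.0343). In all, 2 members were called higher and 1 lower, against 14.3% and 14.4% of all symbols. Without SSBP1-KD HS replicate 2, 5 members were called, and the share of all symbols in that fit is not given.

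**Figure D3:**
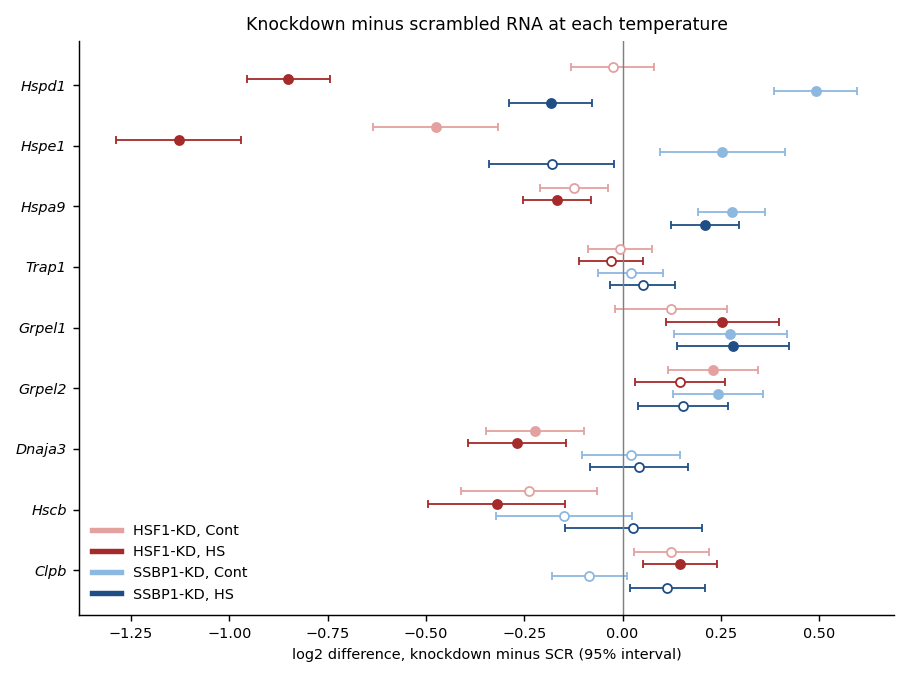
Log2 difference of each knockdown from SCR (horizontal axis, with its 95% interval) for each chaperone gene, in Cont (pale) and in HS (dark), with HSF1-KD in red and SSBP1-KD in blue; filled points passed an adjusted p under 0.05. In SSBP1-KD, Hspd1 lies at 0.49 in Cont and at -0.18 in HS, whereas Hspa9 lies at 0.28 and 0.21.

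In unheated HSF1 knockdown cells the lid, and not the chamber, was called lower than in SCR. Hspe1 was lower than in SCR Cont by 0.48 (-0.48, standard error 0.0741, 0.719-fold, adjusted p = 0.000425), with every HSF1-KD Cont array below every SCR Cont array, and its chromosome 1 probe set gave -0.44 (adjusted p = 9.16e-05). With the methods' t-test the Hspe1 difference did not pass (adjusted p = 0.0831). Hspd1, which shares the promoter stretch shown above, overlapped between the groups, with a difference of -0.02 (95% interval -0.13 to 0.08, adjusted p = 0.802) and of 0.05 in the chromosome 1 probe set.

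The 2 genes were therefore compared within each array. The log2 signal of Hspe1 minus that of Hspd1 was 0.11 ± 0.00834 (SD, n = 3) in SCR Cont and -0.34 ± 0.109 in HSF1-KD Cont, and -0.10 ± 0.0305 in SCR HS and -0.38 ± 0.0186 in HSF1-KD HS. No HSF1-KD array reached the SCR array of the same temperature. Knockdown minus SCR was -0.45 in Cont and -0.28 in HS, with a mean of -0.36, and an exact two-sided permutation test with labels exchanged within each temperature gave p = 0.005, the smallest that its 400 arrangements allow. The chromosome 1 probe sets gave -0.49, -0.17 and a mean of -0.33 with the same p. This comparison was chosen after the values had been seen, and it measures an unequal change and not the ratio of the transcripts. Where all arrays are separate in the same direction at both temperatures, this test can only return its smallest p. The p-value therefore adds nothing to the separation of the arrays that was already seen. In SSBP1-KD the same quantity was -0.13 ± 0.0813 in Cont and -0.10 ± 0.0729 in HS. The chromosome 1 probe sets gave -0.36 ± 0.0258 and -0.37 ± 0.074, against -0.07 ± 0.0593 in SCR Cont and -0.37 ± 0.0076 in SCR HS. In both pairs of probe sets, every SSBP1-KD Cont array and every SCR HS array lay below every SCR Cont array. A lower value than in SCR Cont was thus not particular to HSF1-KD. The SSBP1-KD HS arrays overlapped those of SCR HS.

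**Figure D4:**
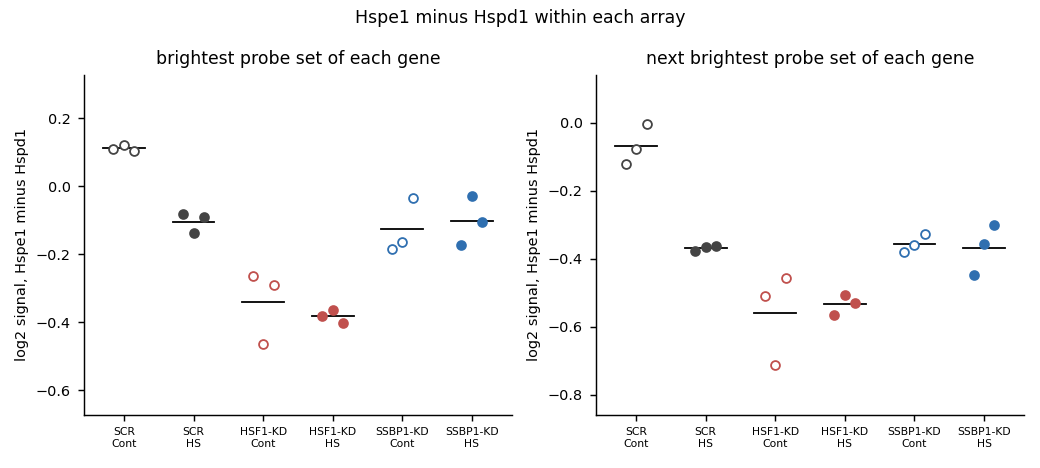
Log2 signal of Hspe1 minus that of Hspd1 within each array (vertical axis) by group, for the brightest probe sets (left) and the next brightest, chromosome 1 probe sets (right); points are arrays, open for Cont and filled for HS, and lines are means of 3. The HSF1-KD means lie below the SCR mean of the same temperature by 0.45 and 0.28 on the left and by 0.49 and 0.17 on the right.

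Among the partners of Hspa9, Dnaja3 was lower in HSF1 knockdown cells at both temperatures. This J protein (Tid1) was at 10.11, 10.14 and 9.97 in SCR Cont and at 9.91, 9.90 and 9.75 in HSF1-KD Cont, a difference of -0.22 (standard error 0.0582, adjusted p = 0.0158). That call was lost without SCR Cont replicate 1 (-0.21, adjusted p = 0.0624), SCR Cont replicate 2 (-0.19, adjusted p = 0.0712) or HSF1-KD Cont replicate 3 (-0.17, adjusted p = 0.0784), with the compared arrays alone (adjusted p = 0.10) and with the methods' t-test (adjusted p = 0.165). Grpel2 moved the other way, to 10.33, 10.45 and 10.34, a difference of 0.23 (standard error 0.0534, adjusted p = 0.00754, and 0.0654 by the methods' t-test).

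Hspa9 (-0.12, adjusted p = 0.0502), Hscb (-0.24, adjusted p = 0.0602) and Clpb (0.12, adjusted p = 0.0734) lay near the threshold in Cont. With the replicate number as a block Hspa9 passed (adjusted p = 0.0439), as it did without SCR Cont replicate 3, HSF1-KD Cont replicate 1 or SSBP1-KD Cont replicate 1 (-0.15, -0.15 and -0.12, adjusted p = 0.0349, 0.0404 and 0.0476). Hscb passed without SCR HS replicate 3, HSF1-KD Cont replicate 3 or SSBP1-KD Cont replicate 1 (-0.24, -0.29 and -0.24, adjusted p = 0.0485, 0.0492 and 0.0290). Clpb passed with the brighter probe sets, with array weights and with the methods' t-test. In Cont 1 member was thus called higher and 2 lower, against 10.9% and 10.1% of all symbols. Without SSBP1-KD Cont replicate 1, 5 were called in all, and the share of all symbols in that fit is not given. The median of the members was -0.02 against 0.03 for all symbols.

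After heat shock HSF1-KD differed from SCR in 7 members. The differences were -0.85 for Hspd1 (standard error 0.0493, 0.555-fold, adjusted p = 3.24e-08) and -1.13 for Hspe1 (standard error 0.0741, 0.458-fold, adjusted p = 1.13e-07), and the chromosome 1 probe sets gave -0.96 and -1.12. Hspa9 went from 12.32, 12.30 and 12.26 in SCR HS to 12.16, 12.11 and 12.10 in HSF1-KD HS (-0.17, standard error 0.0403, adjusted p = 0.00879, and 0.0564 with the compared arrays alone). Dnaja3 went from 10.07, 10.15 and 10.09 to 9.89, 9.81 and 9.80 (-0.27, standard error 0.0582, adjusted p = 0.00435). All of these groups were separate, with every HSF1-KD HS array below every SCR HS array. The share of all symbols that separate in this way is not given here.

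Hscb, the J protein of iron-sulfur cluster transfer, was at 7.26, 7.35 and 7.51 in SCR HS and at 7.13, 7.05 and 6.98 in HSF1-KD HS (-0.32, standard error 0.0812, adjusted p = 0.0120). Without SCR HS replicate 3 or HSF1-KD HS replicate 3 the difference was -0.25 and -0.28 (adjusted p = 0.0679 and 0.0535), and the methods' t-test gave an adjusted p of 0.106. Grpel1 and Clpb were higher in HSF1-KD HS, by 0.25 (adjusted p = 0.0150) and 0.15 (adjusted p = 0.0327). Neither was a firm call. Grpel1 did not pass without SCR HS replicate 2 or 3 or HSF1-KD HS replicate 2 (0.20, 0.23 and 0.22, adjusted p = 0.0825, 0.0619 and 0.0724), with the compared arrays alone (adjusted p = 0.0723) or with the methods' t-test (adjusted p = 0.148). Clpb did not pass without SCR HS replicate 2 or 3 or HSF1-KD HS replicate 1 or 2 (0.12, 0.14, 0.14 and 0.13, adjusted p = 0.140, 0.109, 0.0856 and 0.120), with array medians set to 1 value (0.13, adjusted p = 0.0832), with the compared arrays alone (adjusted p = 0.115) or with the methods' t-test (adjusted p = 0.116).

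Grpel2 differed by 0.15 (adjusted p = 0.0764), and passed without SSBP1-KD HS replicate 2 (0.15, adjusted p = 0.0459). Trap1 did not pass in HS (-0.03, 95% interval -0.11 to 0.05). Over the set, 2 members were called higher and 5 lower, against 13.1% and 10.7% of all symbols, with a median of -0.17 against 0.03 for all. Without SCR HS replicate 3, 4 members were called, and the share of all symbols in that fit is not given.

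Set directly against each other, the knockdowns differed most in Hspe1. It was higher in SSBP1-KD than in HSF1-KD by 0.73 in Cont and by 0.95 in HS (standard error 0.0741, adjusted p = 4.83e-06 and 4.93e-07), and Hspd1 by 0.52 and 0.67 (standard error 0.0493, adjusted p = 2.64e-06 and 2.99e-07). The chromosome 1 probe sets gave 0.71 and 0.96 for Hspe1 and 0.51 and 0.79 for Hspd1, all of which passed. Hspa9 was higher by 0.40 and 0.38 (adjusted p = 4.40e-06 and 9.05e-06) and Dnaja3 by 0.24 and 0.31 (adjusted p = 0.00643 and 0.00126). The Dnaja3 difference in Cont did not pass with the compared arrays alone (adjusted p = 0.0838) or with the methods' t-test (adjusted p = 0.106). Hscb was higher by 0.35 in HS (adjusted p = 0.00618), and Clpb was lower by 0.21 in Cont (-0.21, adjusted p = 0.00286, and 0.0545 with the compared arrays alone). The exchange factors, higher in both knockdowns in at least one temperature, differed little between them, with 0.15 and 0.03 for Grpel1 and 0.01 and 0.01 for Grpel2. In Cont 4 members were called higher and 1 lower in SSBP1-KD (all symbols 12.9% and 16.6%), and in HS 5 higher and 0 lower (all symbols 11.6% and 14.1%).

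The order of the 6 groups differed from gene to gene. For Hspd1 the group means were 11.93 ± 0.0555 in HSF1-KD Cont, 11.95 ± 0.0929 in SCR Cont, 11.99 ± 0.0502 in HSF1-KD HS, 12.45 ± 0.0418 in SSBP1-KD Cont, 12.65 ± 0.0278 in SSBP1-KD HS and 12.84 ± 0.0142 in SCR HS (SD, n = 3). The lowest 3 of these groups overlapped. For Hspe1 they were 11.59 ± 0.15 in HSF1-KD Cont, 11.60 ± 0.0495 in HSF1-KD HS, 12.07 ± 0.0962 in SCR Cont, then 12.32 ± 0.0978 in SSBP1-KD Cont, 12.55 ± 0.0730 in SSBP1-KD HS and 12.73 ± 0.0285 in SCR HS, and the lowest pair and the neighbours among the highest 3 did not pass a test against each other. Hspa9 was ordered by kind of cell, with 12.11 ± 0.0397 and 12.13 ± 0.0333 in HSF1-KD, 12.23 ± 0.0496 and 12.29 ± 0.0335 in SCR, and 12.51 ± 0.00910 and 12.50 ± 0.0438 in SSBP1-KD (Cont and HS), the temperatures of each kind overlapping. Trap1 had its lowest group mean in HSF1-KD HS (10.91) and its highest in SSBP1-KD Cont, and none of its comparisons passed, save heat in HSF1-KD when quantile normalization was applied again (-0.11, adjusted p = 0.0284).

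Over the 18 arrays, Hspd1 and Hspe1 had a Pearson correlation of 0.927, and of 0.719 after the group means were removed, as a description of arrays that share their groups. The symbols whose pattern was most like that of Hspd1 were Hspb8 (0.985), F3 (0.963), Dnaja1 (0.957), Olr1 (0.952) and Dnaja4 (0.951), and those most like Hspe1 were F3 (0.955), Arid5b (0.953), Stip1 (0.952), Mllt1 (0.951) and Hspa8 (0.950). Hspb8, Dnaja1, Dnaja4, Stip1 and Hspa8 are chaperones or cochaperones of the cytosol. Hspa9 was most like Strap (0.984), Akt1s1 (0.980), Plekho2 (0.978), Map2k3 (0.975) and Gmps (0.973), none of them a chaperone by name. Clpb was most like Emc4 (0.942), Chpf2 (0.937), Jagn1 (0.925), Smim7 (0.924) and Pcyox1l (0.923).

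Cytosolic chaperones and cochaperones, listed with earlier results of these data known, moved over a much wider range. Their counts depend on that choice of genes. Of 9 measured, 8 rose with heat in SCR (7.63% of all symbols), 2 in HSF1-KD (10.6%) and 7 in SSBP1-KD (4.08%), with median differences of 1.92, 0.11 and 0.78. Hspa1a, the inducible Hsp70, rose by 4.31 in SCR, 0.55 in HSF1-KD and 3.42 in SSBP1-KD (adjusted p = 5.78e-15, 5.28e-05 and 1.63e-13), and its cochaperone Dnajb1 rose by 2.96 in SCR and 1.74 in SSBP1-KD (adjusted p = 2.60e-12 and 1.97e-09). In 7 of the 9 the heat response was called lower in HSF1-KD than in SCR (all symbols 0.336%), and in 7 it was called lower in SSBP1-KD (0.311%). Compared with HSF1-KD, 5 of the 9 responses were called higher in SSBP1-KD (0.291%). Unheated SSBP1-KD cells had 4 of the 9 called higher than SCR (14.6% of all symbols) and 0 lower, with 0.48 for Hsph1, 0.28 for Hsp90aa1, 0.25 for Dnaja2 and 0.24 for Dnaja1.

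Genes of mitochondrial protein import, listed as channel subunits and other import factors such as peptidases and motor regulators, showed no called rise with heat in SCR. Of 27, 0 were called higher and 3 lower (all symbols 7.63% and 8.34%), Timm9 (-0.26), Timm22 (-0.22) and Timm50 (-0.19). In SSBP1-KD against SCR 9 were called higher and 5 lower in Cont (all symbols 14.6% and 16.5%), and 12 higher and 1 lower in HS (all symbols 14.3% and 14.4%). Timm17a, a channel subunit of the inner membrane, was higher by 0.39 and 0.46 (adjusted p = 7.97e-05 and 1.64e-05), and the small carrier Timm9 by 0.35 and 0.51 (adjusted p = 0.00187 and 9.96e-05). Pam16, which holds back the J protein of the import motor, was lower in Cont (-0.46, adjusted p = 0.00386). HSF1-KD called 2 higher and 1 lower in Cont (all symbols 10.9% and 10.1%) and 10 higher and 1 lower in HS (all symbols 13.1% and 10.7%), Dnajc15 (0.27), Tomm7 (0.27), Timm13 (0.26) and Timm23 (0.24) among those that were higher.

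The mitochondrial proteases, which remove what the chaperones cannot fold, were listed together with the prohibitin Phb2. Of 11 measured genes of that list, 0 rose with heat in SCR and 4 fell (all symbols 7.63% and 8.34%), as did 5 in HSF1-KD (10.8% of all symbols) and 1 in SSBP1-KD (2.82%). Oma1, the stress-activated inner membrane protease, fell by 0.33 in SCR and by 0.45 in HSF1-KD (adjusted p = 0.00220 and 0.000203), and Htra2 fell in all 3 kinds of cell, by 0.20, 0.22 and 0.18 (adjusted p = 0.0154, 0.00798 and 0.0456). In SSBP1-KD against SCR, 2 were called higher and 2 lower in Cont (all symbols 14.6% and 16.5%) and 4 higher and 1 lower in HS (14.3% and 14.4%). Afg3l1 and Spg7, subunits of inner membrane AAA proteases, were lower in Cont (-0.31 and -0.28, adjusted p = 0.000277 and 0.00150), and Afg3l1 also in HS (-0.17, adjusted p = 0.0195). Parl was higher by 0.31 in Cont and 0.33 in HS (adjusted p = 0.00228 and 0.00144). Clpp, the matrix peptidase, was higher by 0.23 and 0.28 (adjusted p = 0.00989 and 0.00283), and Lonp1, the Lon protease, by 0.22 in HS (adjusted p = 0.0145).

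Of 9 measured genes of iron-sulfur cluster assembly, the pathway that Hscb serves, 1 rose with heat in SCR (Nfs1, the cysteine desulfurase, 0.19, adjusted p = 0.0120), against 7.63% of all symbols. In SSBP1-KD against SCR 2 were called higher and 0 lower in Cont (all symbols 14.6% and 16.5%), and 2 higher and 1 lower in HS (14.3% and 14.4%). Glrx5 was higher by 0.30 and 0.31 (adjusted p = 0.00154 and 0.00115) and Nfu1 by 0.28 and 0.24 (adjusted p = 0.00352 and 0.00828), while Nfs1 was lower in HS (-0.20, adjusted p = 0.00522). Among 5 other mitochondrial J and J-regulator genes the heat differences reached from -0.17 (Dnajc11, SCR) to 0.29 (Dnajc28, HSF1-KD, adjusted p = 0.0928), and none passed. Dnajc30 was lower in HSF1-KD by 0.64 in Cont and by 0.58 in HS (-0.64 and -0.58, adjusted p = 0.000810 and 0.00148). It was the 1 gene of the 5 called lower there, and 0 were called higher (all symbols 10.1% and 10.9% in Cont, 10.7% and 13.1% in HS). In SSBP1-KD against SCR, 1 was called higher and 1 lower in Cont (all symbols 14.6% and 16.5%). In HS 2 were called higher and 2 lower (14.3% and 14.4%).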

How the data were processed

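RNA from 18 samples of immortalized MEF cells, 3 in each of 6 groups, was hybridised to Affymetrix Mouse Gene 1.0 ST arrays. The authors deposited log2 signals per probe set, and the submitters' processing notes name RMA and Partek 6.5; the raw scans were not analysed here. Arrays carry no read depth, so that their number limits the precision.

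Of 35557 probe sets, 21789 carry 1 symbol, 1621 several and 12147 none; 21698 of those with 1 symbol matched the RefSeq table of GRCm38.p6. A linear model of the log2 signals of all probe sets was fitted by limma 3.58.1 under R 4.3.3 (lmFit and eBayes, 1 mean per group, no replicate block, 12 residual and 2.36 prior degrees of freedom). P-values were two-sided and adjusted over all probe sets after Benjamini and Hochberg, and an adjusted p under 0.05 was called. Counts over all symbols use 1 probe set for each of 19938 symbols. Where arrays of groups are said not to overlap, the share of all symbols without overlap is not given. The fit was tested on simulated data.

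The members, the gene lists and the rule for named genes (all members, up to 4 called genes of a list with the largest difference, the 5 best correlated symbols) were chosen with earlier results of these data known. No pairing of arrays by replicate number was seen: among 45 same-number pairs, residuals of 8 correlated above 0.1 (-0.353 to 0.228). Whether arrays of the same number were handled together is not given. Alternatives were other normalizations, a filter on dim probe sets, the compared arrays alone, array weights, a replicate block, the methods' t-test, the study's fold rule, the next brightest probe set and each array left out. Figures were drawn with matplotlib 3.10.9.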

Additional observations from a re-analysis of the deposited data

Results flagged for a closer look

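The heat response of 2 members differed between kinds of cell in a test of the difference itself. For Hspd1 the log2 response was lower in HSF1-KD than in SCR (-0.825), and lower in SSBP1-KD than in SCR (-0.673). For Hspe1 it was lower in HSF1-KD than in SCR (-0.653). All of these contrasts share the SCR arrays. No group was large enough for a test of single outlying arrays.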

How the results depend on the processing

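Of 2712 values of 108 member results under the alternatives, 2554 kept their direction and side of the threshold, 40 no longer passed, 46 newly passed and 72 turned in sign. All 72 were differences near 0 that passed in neither fit, and the cause was not tested. The replicate block gave 3 members called for heat in SCR and 4 for HSF1-KD against SCR in Cont, and Hspa9 there (-0.12) was the member call it changed.

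Counts of members called moved as follows. Shares of all symbols are given for the main fit alone, so that a general shift in the number of calls cannot be told from these counts. For heat in HSF1-KD, 1 became 2 with quantile normalization applied again and 0 with the study's fold rule. For heat in SSBP1-KD, 1 became 2 with array medians set to 1 value, the brighter probe sets, array weights or the next brightest probe set, and 0 with the compared arrays alone, the methods' t-test or the fold rule, and was 0 to 2 with single arrays left out. For HSF1-KD against SCR in Cont, 3 became 5 with array medians, brighter probe sets or weights (2 to 5 with arrays left out). With the t-test it became 1, which was Clpb, and none of the 3 calls of the main fit passed. For HSF1-KD against SCR in HS, 7 became 4 with the compared arrays or the t-test (4 to 8 with arrays left out). For SSBP1-KD against SCR in HS, 3 became 5 with quantile normalization or brighter probe sets and 6 with weights (2 to 5). SSBP1-KD against HSF1-KD in Cont went from 5 to 3 with the compared arrays. The heat response difference of HSF1-KD went from 2 to 1 with the t-test, and that of SSBP1-KD from 1 to 2 with quantile normalization, brighter probe sets, weights or the next brightest probe set.

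Sign turns for heat in SCR were Grpel1 (array medians -3e-05, quantile -0.0035, weights -0.0099) and Hscb (weights 0.021). For heat in HSF1-KD they were Hspd1 (next probe set -0.052), Hspe1 (quantile -0.028, weights -0.011, next probe set -0.027), Hspa9 (quantile -0.022) and Dnaja3 (weights 0.0066). For heat in SSBP1-KD they were Hspa9 (medians 0.019), Trap1 (medians 0.0088), Grpel1 (quantile -0.021) and Grpel2 (quantile -0.0072, weights -0.0056). For HSF1-KD against SCR in Cont they were Hspd1 (quantile 0.022, next probe set 0.048) and Trap1 (quantile 0.026), and for SSBP1-KD against SCR in HS Hscb (weights -0.00017). In the heat response differences they were Grpel1 for SSBP1-KD against SCR (quantile -0.017) and Grpel2 for SSBP1-KD against HSF1-KD (medians 0.018).

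With single arrays left out, ranges crossed 0 for heat in SCR in Grpel1 (-0.063 to 0.059), Dnaja3 (-0.024 to 0.060) and Hscb (-0.090 to 0.037), and for heat in HSF1-KD in Hspe1 (-0.066 to 0.083), Hspa9 (-0.00025 to 0.041) and Dnaja3 (-0.067 to 0.0097). For heat in SSBP1-KD they were Hspa9 (-0.028 to 0.015), Trap1 (-0.039 to 0.001), Grpel1 (-0.0079 to 0.060), Grpel2 (-0.0089 to 0.083) and Clpb (-0.066 to 0.0082). For HSF1-KD against SCR in Cont they were Hspd1 (-0.074 to 0.018) and Trap1 (-0.024 to 0.010). For SSBP1-KD against SCR they were Dnaja3 in Cont (-0.030 to 0.056) and Hscb in HS (-0.031 to 0.096). For SSBP1-KD against HSF1-KD they were Grpel2 in Cont (-0.020 to 0.053) and in HS (-0.030 to 0.062), and Clpb in HS (-0.067 to 0.0075). In the heat response differences they were Dnaja3 (-0.094 to 0.0061) and Clpb (-0.0028 to 0.058) for HSF1-KD against SCR, Grpel1 (-0.044 to 0.078) and Dnaja3 (-0.014 to 0.073) for SSBP1-KD against SCR, and Grpel2 (-0.045 to 0.049) for SSBP1-KD against HSF1-KD. The within-array comparison of Hspe1 with Hspd1 was varied after its values had been seen and gave -0.38 to -0.33 throughout.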
